A study of Mus musculus with 6 samples.

Results

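The 29 genes described here serve entry into S phase and the copying of DNA, and many of them are textbook targets of the E2F transcription factors. They were chosen by name, and each symbol matched exactly 1 of the 49315 gene identifiers in the count files. All 29 had enough reads to be tested, among 16068 tested genes. Levels were measured by sequencing poly(A)-selected RNA from mouse embryo fibroblasts, cells grown out of whole embryos and kept in culture. The SG lines (SG1, SG2 and SG3) had the genotype p53-/-;MDMXSG/SG, in which both copies of MDMX (gene Mdm4) carry the knock-in substitutions W201S and W202G. The WT lines (WT3, WT9 and WT11) had the genotype p53-/-;MDMXWT/WT. Both groups thus lacked p53, and all 6 lines were of strain C57BL/6, untreated, at passage 4 and grown in DMEM with 10% serum, each from 1 embryo. The mutation breaks the binding of MDMX to the kinase CK1-alpha, and the study asked which transcripts it affects in cells without p53.

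E2F factors bind promoters of genes needed for DNA replication. In resting cells they are held back by the retinoblastoma family of pocket proteins, and cyclin-dependent kinases release them late in G1. Their targets include the helicase that opens the DNA, the factors that load it at origins, the polymerases with their sliding clamp, and the enzymes that make deoxynucleotides. Transcripts of these genes peak around the G1 to S transition, so in a mixed culture their level moves with the share of cells that are cycling as well as with transcription in each cell. In bulk RNA such as this, fewer cells in S phase and less RNA per cell cannot be told apart.

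The libraries held between 54852998 and 64434605 counted reads in SG lines and between 49317925 and 65457242 in WT lines. The mutated gene Mdm4 was read at 63.8, 58.9 and 57.4 CPM in SG1, SG2 and SG3, against 63.1, 59.1 and 59.0 CPM in WT3, WT9 and WT11, where CPM is the usual depth-scaled read count, here on library sizes scaled by edgeR's TMM method. The 2 substituted codons cannot be seen in a count per gene, so this level does not check the labels, and nor does Trp53, read at 69.2 to 73.1 CPM in the 6 lines. Of 12 fibroblast markers, all were detected in every line, with Col1a1 between 5453 and 6954 CPM, and 3 of them (Thy1, Twist2 and S100a4) passed the test as lower in SG lines, where 1.1% of all tested genes did. SG1 and WT9 held Xist, the RNA of the inactive X chromosome (399 and 343 CPM, against 0.565 to 0.700 CPM in the other 4 lines). The 10 macrophage and blood markers summed to 27.9, 31.5 and 64.4 CPM in SG1, SG2 and SG3, against 34.7, 32.8 and 12.1 CPM in WT3, WT9 and WT11, with 0 of the 10 at a count of 0 in any line, Lyz2 highest among them. The 29 genes together took 0.274%, 0.274% and 0.268% of the counts of SG1, SG2 and SG3, against 0.288%, 0.283% and 0.304% of those of WT3, WT9 and WT11.

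Promoter sequence was looked at for the letters that E2F factors favour, because these genes are grouped by that control. RefSeq windows from 250 bases before to 50 bases after the annotated start (build GRCm38.p6) were found for 24 of the 29 genes. For Mcm5, Mcm6 and Rfc4 the last bases of the window were not found in any GENCODE transcript of the gene. The same held for the E2f2 window with E2F letters and for a window of Fen1. These starts are less certain. The letters searched on both strands were TTTCCCGC, TTTCGCGC, TTTGCCGC and TTTGGCGC, and 10 of the 24 genes (41.7%) held at least 1 of them, against 2.61% of 27025 genes with a window. The letters CCAAT, bound by the factor NF-Y, were in 14 of the 24 genes (58.3%), against 41.1% of all. A match describes the letters of the window and is not by itself a site in use. The windows below are 90 bases long, with matches in capitals. They are shown for Mcm6, Mcm5 and Pola1, whose levels did not overlap between the genotypes, for Cdc6 of the licensing group, and for Rfc3, the steadiest of the 29. In them the capitals mark E2F letters, on either strand, and in Mcm5 and Mcm6 a pair on opposite strands overlaps in 1 run. All of these were picked from genes with a match before the start. Of the other genes with every SG line below every WT line, Mcm3 held E2F letters only after the start. Mcm2, Pcna, Rrm1, Rrm2 and E2f1 held none.
Mcm6, chr1:128359741-128359830, minus strand: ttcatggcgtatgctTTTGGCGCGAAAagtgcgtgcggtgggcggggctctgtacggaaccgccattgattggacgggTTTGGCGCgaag
Mcm5, chr8:75109341-75109430, plus strand: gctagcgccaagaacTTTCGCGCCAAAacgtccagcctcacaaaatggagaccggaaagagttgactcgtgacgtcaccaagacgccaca
Pola1, chrX:93632219-93632308, minus strand: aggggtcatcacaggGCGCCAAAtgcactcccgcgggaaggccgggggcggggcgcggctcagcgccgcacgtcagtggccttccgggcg
Cdc6, chr11:98907998-98908087, plus strand: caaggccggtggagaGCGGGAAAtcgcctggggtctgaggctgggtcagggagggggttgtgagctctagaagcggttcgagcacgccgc
Rfc3, chr5:151651199-151651288, minus strand: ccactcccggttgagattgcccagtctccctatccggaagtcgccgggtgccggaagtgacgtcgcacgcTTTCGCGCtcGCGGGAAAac
The window of Rrm2, the gene with the widest difference between genotypes, held no E2F letters, and the capitals in it mark CCAAT.
Rrm2, chr12:24708174-24708263, plus strand: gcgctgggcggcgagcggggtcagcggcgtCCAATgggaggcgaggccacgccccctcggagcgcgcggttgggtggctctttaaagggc

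Between the genotypes, 0 of the 29 genes passed the threshold in either direction. The test was edgeR's quasi-likelihood test over all 16068 genes with Benjamini-Hochberg adjustment at 0.05, by which 1.9% of all tested genes were called, 0.809% higher and 1.1% lower in SG lines. Over the 29, the log2 fold changes (SG minus WT) ran from -0.27 to 0.12 with a median of -0.055, beside a median of 0.0017 over all genes tested. They lay below 0 in 23 of the 29, against 49.3% of all genes. Unadjusted p was under 0.05 for 7 of the 29, against 15.5% of all genes. Their SEs were small, between 0.032 and 0.095 on the log2 scale. The 95% interval of the difference, not adjusted for the number of genes, lay within a 1.2-fold change in either direction for 25 of the 29 genes. The exceptions were Rrm2, Tk1 and Mcm5 on the low side and E2f2 on the high side. The genotypes did not overlap in 11 of the 29, against 21.2% of all tested genes. In 9 of them every SG line was below every WT line (11.2% of all tested genes), and in 2 every SG line was above (10% of all). The median depends on WT11. Without that line, 18 of the 29 lay below 0 and their median log2 fold change was -0.022.

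**Figure D1:**
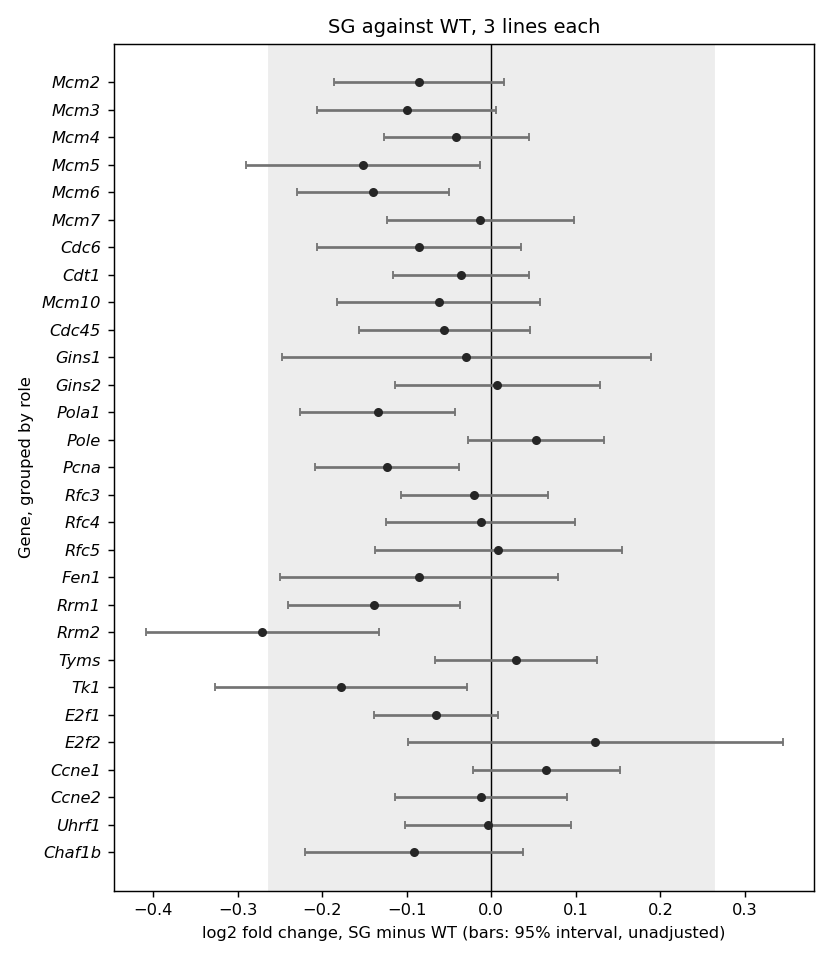
Log2 fold change of each of the 29 genes, SG minus WT (3 lines each), with its unadjusted 95% interval; genes run down the page by role and the grey band spans a 1.2-fold change either way. Intervals of 7 genes lie wholly below 0 and none wholly above, and Rrm2 lies farthest from 0 at -0.27.

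The 6 subunits of the MCM helicase, the ring that unwinds DNA at the fork, had log2 fold changes from -0.15 to -0.013. In 4 of them every SG line was below every WT line, against 11.2% of all tested genes. Mcm6 (ENSMUSG00000026355, chromosome 1, 128331590 to 128359664) stood at 199, 197 and 196 CPM in SG1, SG2 and SG3, against 213, 212 and 228 CPM in WT3, WT9 and WT11. All SG lines were below all WT lines (log2 fold change -0.14, SE 0.039, adjusted p = 0.126), and the interval ran from 0.853-fold to 0.966-fold. The log2 fold change of Mcm6 was -0.10 without WT11 (edgeR adjusted p = 0.286). Mcm6 lies 4.63 Mb from the mutated Mdm4 gene on chromosome 1, and the part of that position in its level was not tested. Mcm5, the subunit beside Mcm2 at the gate of the ring, stood at 116, 119 and 120.2 CPM in SG1, SG2 and SG3, against 127, 124 and 144 CPM in WT3, WT9 and WT11. WT11 was the high line for Mcm5, and the other WT lines were close to the SG lines (log2 fold change -0.15, SE 0.060, adjusted p = 0.273). Without WT11 its log2 fold change was -0.080 (adjusted p = 0.492). Mcm3 stood at 164, 166 and 157 CPM in SG1, SG2 and SG3, against 169, 168 and 184 CPM in WT3, WT9 and WT11 (log2 fold change -0.10, SE 0.046, adjusted p = 0.352). The lowest WT line of Mcm3 was 168 CPM and the highest SG line 166 CPM, so the gap between genotypes was narrower than the spread of the WT lines. Mcm2 likewise did not overlap, at 158 ± 2.17 CPM in SG lines, against 168 ± 8.34 CPM in WT lines (SD, n = 3 each; log2 fold change -0.086, SE 0.043, adjusted p = 0.407). Without WT11 the log2 fold change was -0.057 (adjusted p = 0.686) for Mcm3 and -0.043 (adjusted p = 0.755) for Mcm2. Mcm4 stood at 178, 177 and 169 CPM in SG1, SG2 and SG3, against 178, 177 and 184 CPM in WT3, WT9 and WT11, and its groups overlapped (log2 fold change -0.042, SE 0.037, adjusted p = 0.655). Mcm7 averaged 168 ± 1.89 CPM in SG lines, against 169.7 ± 10.4 CPM in WT lines (SD, n = 3 each; adjusted p = 0.931), with WT3 the lowest line. Mcm7 shares 12.6% of its exon bases with other genes, so its count is less certain than those of the other subunits.

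The factors that load and switch on the helicase were nearly level. Cdc6 and Cdt1 bring the MCM ring to origins, and Mcm10, Cdc45 and the GINS subunits turn it into a moving helicase. Cdt1 (ENSMUSG00000006585, chromosome 8, 122568015 to 122573554) stood at 49.1, 49.9 and 50.7 CPM in SG1, SG2 and SG3, against 49.9, 52.0 and 51.5 CPM in WT3, WT9 and WT11, with the genotypes overlapping (log2 fold change -0.035, SE 0.035, adjusted p = 0.685). Cdc45 stood at 38.7, 39.0 and 37.5 CPM in SG1, SG2 and SG3, against 39.2, 38.6 and 42.0 CPM in WT3, WT9 and WT11, of which WT11 alone was above 40 CPM (log2 fold change -0.055, SE 0.044, adjusted p = 0.615). Cdc6 averaged 38.9 ± 1.32 CPM in SG lines, against 41.3 ± 2.46 CPM in WT lines (SD, n = 3 each; adjusted p = 0.501) and Mcm10 40.4 ± 1.05 CPM in SG lines, against 42.1 ± 2.68 CPM in WT lines (SD, n = 3 each; adjusted p = 0.63), WT11 being the high line and SG3 the low line of both. Without WT11 the log2 fold changes were -0.035 for Cdc6, -0.0072 for Mcm10 and -0.017 for Cdc45, against -0.085, -0.062 and -0.055 with it. Cdc45 shares 9.28% of its exon bases with Ufd1 on the other strand. Gins1, the least evenly expressed of this group, stood at 15.2, 13.2 and 14.2 CPM in SG1, SG2 and SG3, against 14.2, 13.0 and 16.2 CPM in WT3, WT9 and WT11. Its high lines were WT11 and SG1 and its low lines WT9 and SG2, so the genotypes were mixed throughout (adjusted p = 0.918). Gins2 averaged 36.1 ± 1.31 CPM in SG lines, against 35.9 ± 2.03 CPM in WT lines (SD, n = 3 each; adjusted p = 0.966). Of its exon bases 67.3% also belong to Gse1 on the other strand, so its count is uncertain.

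Among the genes that carry out synthesis, the clamp and the priming polymerase lay lower in SG lines without passing the threshold. Pcna (ENSMUSG00000027342, chromosome 2, 132249162 to 132253314), which encodes the sliding clamp that tethers polymerases to DNA, stood at 182, 186 and 181 CPM in SG1, SG2 and SG3, against 198, 194 and 206 CPM in WT3, WT9 and WT11. SG and WT lines did not overlap (log2 fold change -0.12, SE 0.037, adjusted p = 0.149), and the interval ran from 0.866-fold to 0.974-fold. The log2 fold change of Pcna was -0.098 without WT11 (edgeR adjusted p = 0.352). Pola1, the catalytic subunit of the polymerase that starts each strand, averaged 59.0 ± 0.334 CPM in SG lines, against 64.8 ± 2.70 CPM in WT lines (SD, n = 3 each; log2 fold change -0.13, SE 0.040, adjusted p = 0.148), also without overlap. Pola1 is on the X chromosome. Of the lines with Xist, SG1 (59.0 CPM) lay between SG2 (58.7 CPM) and SG3 (59.4 CPM). WT9 (62.3 CPM) was the lowest WT line, below WT3 (64.3 CPM) and WT11 (67.7 CPM). Without WT11 the log2 fold change of Pola1 was -0.10 (edgeR adjusted p = 0.341). Pole, which encodes the leading-strand polymerase, lay the other way at 75.7, 76.9 and 75.5 CPM in SG1, SG2 and SG3, against 72.5, 72.0 and 75.4 CPM in WT3, WT9 and WT11. All SG lines were above all WT lines, with WT11 within 0.1 CPM of the lowest of them (log2 fold change 0.053, SE 0.035, adjusted p = 0.532). The clamp loader subunits Rfc3, Rfc4 and Rfc5, which open the clamp and set it on DNA, had log2 fold changes of -0.020, -0.013 and 0.0085. Rfc3 stood at 28.2, 28.6 and 28.2 CPM in SG1, SG2 and SG3, against 28.9, 28.4 and 28.996 CPM in WT3, WT9 and WT11, a highest line only 1.03 times the lowest. Rfc4 stood at 22.8, 22.4 and 23.9 CPM in SG1, SG2 and SG3, against 23.2, 22.6 and 23.9 CPM in WT3, WT9 and WT11 (adjusted p = 0.933). Rfc4 shares 12.6% of its exon bases with Eif4a2 and Rfc5 10.7% with Wsb2, both on the other strand, so their counts are less certain. Fen1, the nuclease that trims Okazaki fragment flaps, averaged 12.5 ± 0.601 CPM in SG lines, against 13.3 ± 0.764 CPM in WT lines (SD, n = 3 each; adjusted p = 0.63). Without WT11 its log2 fold change was -0.036, against -0.085 with it. Its exon bases are 84.2% shared with Tmem258 and Gm10143 on the other strand, so its level is uncertain.

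Nucleotide synthesis held the widest differences of the 29. Rrm2 (ENSMUSG00000020649, chromosome 12, 24708241 to 24714146), the small subunit of ribonucleotide reductase that is made in S phase and limits the enzyme, stood at 243, 245 and 220.4 CPM in SG1, SG2 and SG3, against 271, 278 and 305 CPM in WT3, WT9 and WT11. SG lines were all below WT lines, SG3 the lowest and WT11 the highest. It averaged 236 ± 13.7 CPM in SG lines, against 285 ± 18.2 CPM in WT lines (SD, n = 3 each), and its log2 fold change -0.27, SE 0.059, adjusted p = 0.0679 came nearest to the threshold of any of the 29. Its interval ran from 0.753-fold to 0.912-fold. The log2 fold change of Rrm2 was -0.22 without WT11 (edgeR adjusted p = 0.189). The call depends on the method. DESeq2 called Rrm2 lower (adjusted p = 0.00136) where it called 6.17% of genes, and edgeR with no filter on low counts did too (adjusted p = 0.00612) where it called 3.33%. No other of the 29 was called by either, and Rrm2 was not called in the other 12 alternatives, in which its adjusted p lay between 0.0587 and 0.189. Rrm1, the large subunit, stood at 365, 372 and 366 CPM in SG1, SG2 and SG3, against 389, 396 and 430.1 CPM in WT3, WT9 and WT11. Again SG and WT lines did not overlap (log2 fold change -0.14, SE 0.044, adjusted p = 0.176). Per kilobase of exon, Rrm2 stood 2.64, 2.62 and 2.39 times as high as Rrm1 in SG1, SG2 and SG3, against 2.77, 2.79 and 2.82 times in WT3, WT9 and WT11. This ratio was thus lower in every SG line than in any WT line. Its size rests on the summed exon lengths, 2771 bases for Rrm2 and 11012 for Rrm1. In CPM, which is not divided by length, Rrm1 was the higher in every line. Tk1, the thymidine kinase of the salvage route, stood at 69.4, 75.7 and 73.7 CPM in SG1, SG2 and SG3, against 82.7, 75.6 and 89.2 CPM in WT3, WT9 and WT11. SG2 was above WT9, so the groups overlapped (log2 fold change -0.18, SE 0.064, adjusted p = 0.236). Without WT11 the log2 fold change was -0.12 (adjusted p = 0.515) for Tk1 and -0.092 (adjusted p = 0.346) for Rrm1. Tyms, which makes thymidylate anew, averaged 56.3 ± 1.21 CPM in SG lines, against 55.2 ± 2.29 CPM in WT lines (SD, n = 3 each) and did not share the pattern (log2 fold change 0.029, adjusted p = 0.798).

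The regulators had log2 fold changes on both sides of 0. E2f1 (ENSMUSG00000027490, chromosome 2, 154559407 to 154569892), the activator that drives much of this programme, stood at 52.3, 53.4 and 51.8 CPM in SG1, SG2 and SG3, against 54.8, 55.2 and 54.9 CPM in WT3, WT9 and WT11. The groups did not overlap, but the difference was small (log2 fold change -0.065, SE 0.032, adjusted p = 0.39), with an interval from 0.908-fold to 1.01-fold. E2f2, another activator, was low at 4.29 ± 0.168 CPM in SG lines, against 3.94 ± 0.0772 CPM in WT lines (SD, n = 3 each), and here all SG lines were above all WT lines (log2 fold change 0.12, SE 0.095, adjusted p = 0.607). At 201 to 279 reads per line, E2f2 had the fewest reads of the 29 and the widest interval, from 0.934-fold to 1.27-fold. Cyclin E activates the kinase CDK2 at the start of S phase. Ccne1 stood at 73.7, 74.9 and 71.5 CPM in SG1, SG2 and SG3, against 70.3, 71.9 and 68.2 CPM in WT3, WT9 and WT11, overlapping only because WT9 was above SG3 (log2 fold change 0.065, SE 0.037, adjusted p = 0.469). Ccne2 averaged 43.4 ± 1.56 CPM in SG lines, against 43.8 ± 1.57 CPM in WT lines (SD, n = 3 each; adjusted p = 0.926), and 17.4% of its exon bases lie in Ints8 on the other strand. E2f2 and Ccne1 were the members for which WT11 lay below the mean of the 6 lines.

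The 2 genes that copy chromatin behind the fork did not pass the threshold, and their genotypes overlapped. Uhrf1, which brings the DNA methyltransferase to newly copied DNA, stood at 156, 159.6 and 161 CPM in SG1, SG2 and SG3, against 156, 154 and 168 CPM in WT3, WT9 and WT11, with WT9 the lowest and WT11 the highest line (log2 fold change -0.0041, SE 0.042, adjusted p = 0.977). Chaf1b, a subunit of the histone chaperone CAF-1, stood at 39.9, 40.5 and 36.9 CPM in SG1, SG2 and SG3, against 39.2, 42.0 and 43.9 CPM in WT3, WT9 and WT11, with SG3 the lowest and WT11 the highest (log2 fold change -0.092, SE 0.055, adjusted p = 0.497). Its log2 fold change was -0.052 without SG3 and -0.052 without WT11.

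WT11 had the highest CPM of the 6 lines in 22 of the 29 genes, against 22.0% of all tested genes. It was above the 6-line mean in 27 of the 29, against 50.04% of all tested genes. SG3 was the lowest line in 12 of the 29, against 19.7% of all tested genes. The mean over the 29 of log2 CPM minus the 6-line mean was -0.036, -0.011 and -0.038 in SG1, SG2 and SG3, against 0.0016, -0.012 and 0.095 in WT3, WT9 and WT11. SG2 was thus above WT9, and the genotypes overlapped, by a margin that depends on the scaling. With total-count scaling the means were -0.026, -0.024 and -0.044 in SG1, SG2 and SG3, against 0.022, -0.013 and 0.085 in WT3, WT9 and WT11, and the genotypes did not overlap. Over all tested genes the same mean was -0.039 in WT11. By role, WT11 was the highest line in 6 of 6 MCM subunits, 5 of 6 licensing and activation factors, 5 of 7 synthesis genes, 3 of 4 nucleotide enzymes, 2 of 2 chromatin genes and 1 of 4 regulators.

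**Figure D2:**
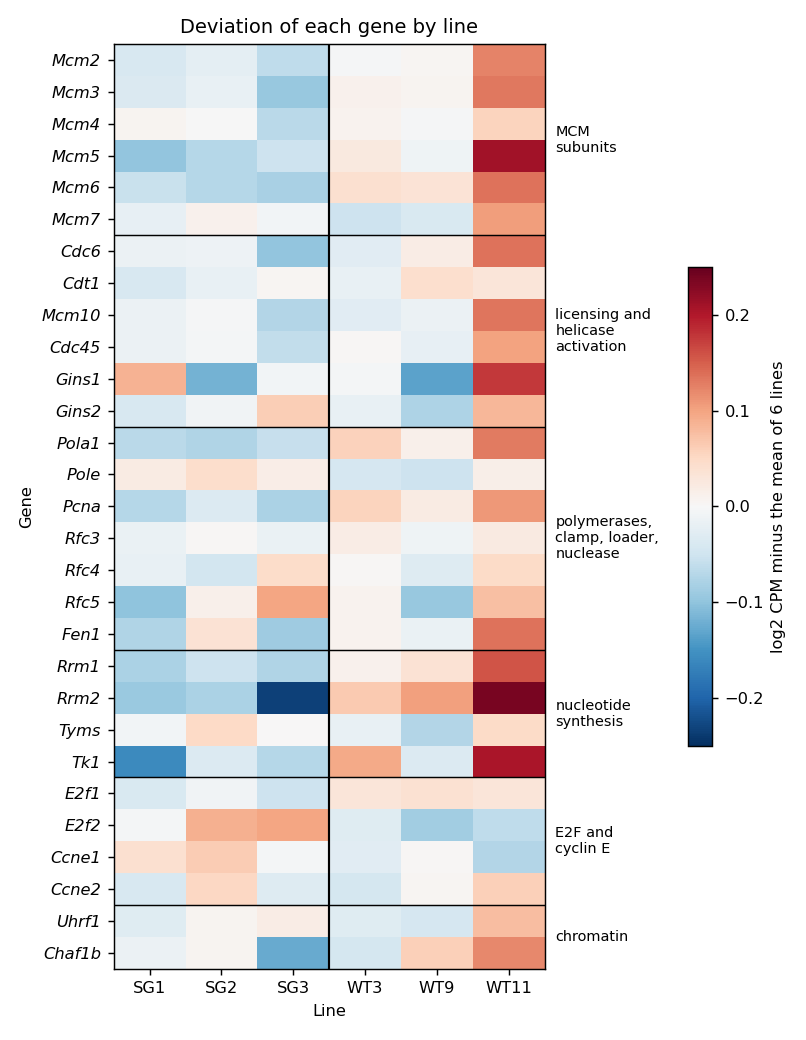
Log2 CPM of each of the 29 genes in each line minus the mean of the 6 lines; rows are genes grouped by role, columns are lines with SG left of WT, red is above and blue below the mean. The WT11 column is above the mean in 27 of 29 genes, Ccne1 and E2f2 being the exceptions, and the means over the 29 are 0.0016 in WT3 and -0.012 in WT9.

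Genes outside the 29 that act in the same processes were also often highest in WT11. The share of all tested genes with WT11 as the highest line was 22.0%. Of 34 other replication genes (origin recognition, primase, further polymerase subunits, single-strand binding proteins), 22 were highest in WT11, and their mean deviation there was 0.068. Of 22 other E2F targets 16 were highest in WT11 (mean deviation 0.083), and of 20 mitotic genes, which act later in the cycle, 16 were (mean deviation 0.086). In the 23 genes of E2F and RB control, 4 were highest in WT11 and the mean deviation was -0.015. In the macrophage and blood markers, all 9 tested ones were lowest in WT11 and highest in SG3, with mean deviations of -0.082, 0.013 and 1.06 in SG1, SG2 and SG3, against 0.26, 0.099 and -1.34 in WT3, WT9 and WT11. Markers of other cell types were also low in WT11 by this mean, which was -0.43 over 7 tested epithelial genes (3 lowest in WT11), -0.51 over 6 endothelial genes (4 lowest) and -0.55 over 5 skeletal muscle genes (3 lowest). In each of these lists WT11 was the lowest of the 6 lines. WT11 was the lowest line in 22.4% of all tested genes, and SG3 the highest in 21.1%. The 12 fibroblast markers went the other way, with a mean deviation of 0.20 in WT11 and 0 lowest there. The 10 epithelial markers summed to 47.5, 47.0 and 19.3 CPM in SG1, SG2 and SG3, against 23.2, 26.4 and 12.9 CPM in WT3, WT9 and WT11, with Krt5 at a count of 0 in SG3 and the 3 WT lines and Esrp1 at 0 in SG3, WT3 and WT11. The 8 endothelial markers summed to 55.1, 74.1 and 62.5 CPM in SG1, SG2 and SG3, against 57.9, 50.4 and 43.3 CPM in WT3, WT9 and WT11, mostly Kdr, with Cldn5 at 0 in the SG lines. The 8 muscle markers summed to 29.8, 22.5 and 19.1 CPM in SG1, SG2 and SG3, against 13.3, 19.4 and 10.6 CPM in WT3, WT9 and WT11, mostly Des, with Myod1 at 0 in SG1, SG3, WT9 and WT11 and Myog at 0 in SG2, WT3 and WT11. The 8 neural and glial markers, mostly Nes, summed to 489, 494 and 471 CPM in SG1, SG2 and SG3, against 363, 422 and 336 CPM in WT3, WT9 and WT11. These sums did not overlap between the genotypes, but the single genes went both ways. Of the 7 tested, 4 had log2 fold changes below 0 and 3 above. In 3 every SG line was below every WT line and in 2 above, against 21.2% of all tested genes in either direction. Their mean deviations were -0.21, -0.11 and -0.042 in SG1, SG2 and SG3, against 0.37, -0.24 and 0.23 in WT3, WT9 and WT11, with the genotypes overlapping. The part of these markers in the levels of the replication genes was not tested.

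**Figure D3:**
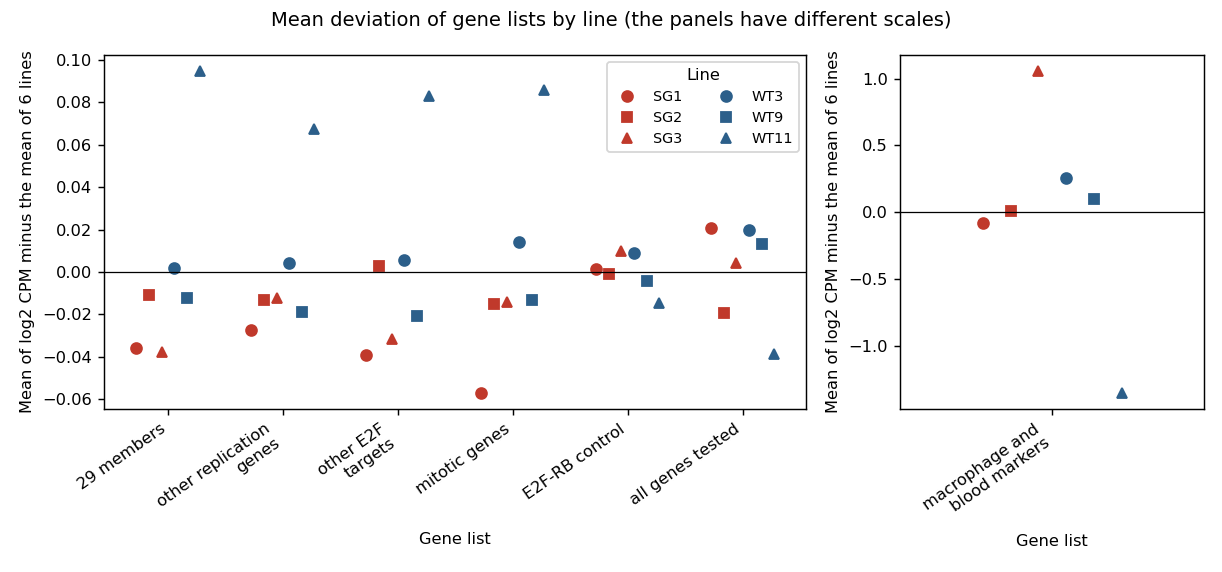
Mean deviation of log2 CPM from the 6-line mean for each gene list (x axis) in each line (points, SG red and WT blue, SG left of WT); the panels have different scales. WT11 lies at 0.095 for the 29 genes and between 0.068 and 0.086 for the other replication, E2F target and mitotic lists, while for macrophage and blood markers it is the lowest line at -1.34.

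Between the genotypes, these related lists held 1 call, where 1.9% of all tested genes were called. Of the 34 other replication genes 0 passed (median log2 fold change -0.047). The smallest unadjusted p were those of Prim2, the large primase subunit, at 36.3 ± 1.54 CPM in SG lines, against 40.3 ± 1.56 CPM in WT lines (SD, n = 3 each; log2 fold change -0.15, adjusted p = 0.172), and Lig1, the ligase that seals Okazaki fragments (log2 fold change -0.11, adjusted p = 0.357). Of the 22 other E2F targets 0 passed (median -0.043), with Tcf19 at 26.963, 27.3 and 28.4 CPM in SG1, SG2 and SG3, against 31.6, 30.2 and 31.5 CPM in WT3, WT9 and WT11 (log2 fold change -0.17, SE 0.043, adjusted p = 0.0923) and Dut, which clears dUTP, at a log2 fold change of -0.14 (adjusted p = 0.344). Of the 20 mitotic genes 0 passed (median -0.062), the smallest unadjusted p being those of the spindle motor gene Kif11 (log2 fold change -0.11, adjusted p = 0.247) and the kinetochore gene Cenpf (-0.080, adjusted p = 0.312).

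In the list of E2F and RB control, 1 of 23 genes passed, against 1.9% of all tested genes. This was Cdk6, which encodes a kinase that phosphorylates the pocket proteins in G1. Cdk6 stood at 91.0, 97.7 and 93.1 CPM in SG1, SG2 and SG3, against 75.7, 77.7 and 70.5 CPM in WT3, WT9 and WT11. Every SG line was above every WT line, as in 10% of all tested genes. Cdk6 rose 1.26-fold in SG lines (log2 fold change 0.33, SE 0.049, adjusted p = 0.0238). The call was lost when SG2 (edgeR adjusted p = 0.107), WT3 (adjusted p = 0.1) or WT11 (adjusted p = 0.0795) was left out, and kept in the other 11 alternatives, with the same direction in all 14. The pocket proteins did not pass, with log2 fold changes of 0.086 for Rb1 (adjusted p = 0.616), -0.024 for Rbl1 (adjusted p = 0.863) and -0.19 for Rbl2 (adjusted p = 0.392). In level per kilobase of exon (RPKM, mean of 6 lines), E2f1 at 17.0 lay below the repressor-type E2f4 (33.4) and E2f6 (25.7) and above E2f3 (12.2), E2f8 (6.54) and E2f7 (5.99). Among the E2F genes named here E2f2 was lowest at 0.843. E2f5, also in the list, is not placed in this order.

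As levels per kilobase of exon, the 29 genes spanned from 0.843 RPKM for E2f2 to 94.0 RPKM for Rrm2. Rrm2 was followed by Pcna at 79.6 RPKM, and Rrm2 was above Pcna in all 6 lines although their ranges overlapped (79.5 to 110.2 and 75.3 to 85.8 RPKM). Mcm4, Mcm3, Mcm6 and Mcm7 came next, while Uhrf1 and Rrm1 stood above Mcm5, and Ccne1 above Mcm2. The MCM subunits were read with Mcm4 at 49.4, Mcm3 at 44.8, Mcm6 at 44.5, Mcm7 at 38.2, Mcm5 at 31.3 and Mcm2 at 23.5 RPKM, although their proteins sit in the ring as single copies. Mcm3 and Mcm6 cannot be ordered, each being the higher in 3 of 6 lines, while Mcm2 was below all other subunits in every line. The place of Mcm2 rests on its summed exon length, 6956 bases against 3993 for Mcm5. In CPM, which is not divided by length, Mcm2 was above Mcm5 in every line. Cyclin E1 transcripts (26.9 RPKM) stood above those of cyclin E2 (12.5 RPKM) without overlap. The factors of origin licensing and helicase activation lay lower, with Cdc45 at 17.4, Cdt1 at 16.1, Cdc6 at 7.67 and Mcm10 at 5.36 RPKM. So did the polymerases Pola1 (7.02) and Pole (6.69), which cannot be ordered since Pola1 was the higher in 3 of 6 lines. Of the 28 pairs of neighbours in this order, 10 had ranges that did not overlap. These levels use the summed exon length of each gene in the files, so a gene with long, little used exons is set too low.

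**Figure D4:**
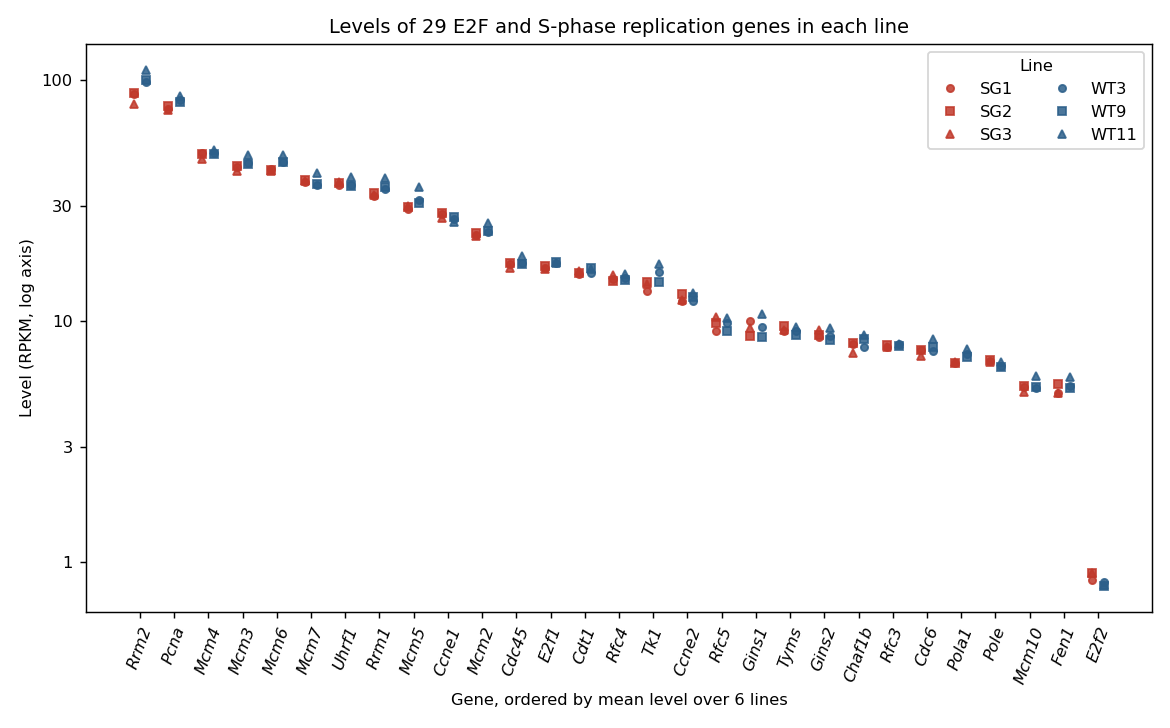
Level of each gene (RPKM, log axis) in each of the 6 lines, genes ordered by their mean; red points are SG and blue points WT lines, SG left of WT. The order runs from Rrm2 at 94.0 to E2f2 at 0.843 RPKM, and the difference between genes is far wider than that between lines.

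Spread between lines was small for these genes and near that of other genes of their level. The SD of log2 CPM over the 6 lines had a median of 0.070 over the 29 and of 0.12 over all genes tested. Over the 10074 tested genes whose mean CPM lay within the range of the 29 (4.11 to 386 CPM) the median was 0.073, below which 15 of the 29 fell. The steadiest were Rfc3 (SD 0.017), Cdt1 (0.031), Pole (0.038), E2f1 (0.039) and Mcm4 (0.040). The most variable were Rrm2 (0.17), Tk1 (0.13), Gins1 (0.12), Mcm5 (0.11) and Rrm1 (0.090). In all of these 5 the highest line was WT11, and the highest line stood above the lowest by 1.39 times in Rrm2, 1.29 times in Tk1, 1.24 times in Gins1 and Mcm5 and 1.18 times in Rrm1.

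**Figure D5:**
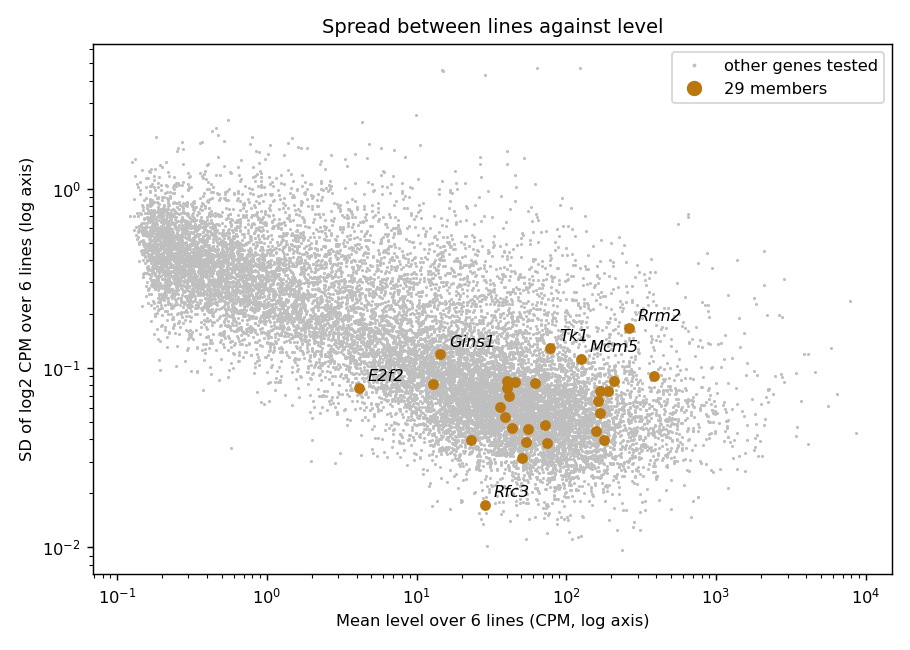
SD of log2 CPM over the 6 lines against mean CPM (both log axes) for the 29 genes (orange) and all other tested genes (grey). The 29 lie within the cloud at their level, Rrm2 near its upper side at 0.17 and Rfc3 at its lower edge at 0.017.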

How the data were processed

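Poly(A)-selected RNA of 6 fibroblast lines was measured, 3 per genotype, grouped and numbered by the sample titles. Each line came from 1 embryo; litter, culture day and run are not known here. The deposited files hold raw counts of reads per gene, in featureCounts layout. Per the submitters' processing notes, the authors used Trimmomatic 0.36, STAR 2.5.2b, featureCounts of Subread 1.5.2 and build GRCm38, with DESeq2 among the tools. Strand setting, multimapping and annotation release: not given in the sources used here. Counts of overlapping genes are therefore uncertain. Totals were 49317925 to 65457242 reads, and 0 rows named no gene. Symbols came from GENCODE M21 (48970 of 49315 identifiers).

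The test was that of edgeR 4.0.16 (R 4.3.3), with filterByExpr, TMM scaling, the quasi-likelihood fit, 2 sides, no covariate and Benjamini-Hochberg adjustment over all genes tested. CPM uses the TMM-scaled library size, RPKM divides it by the file's exon length, and log2 CPM adds a prior count of 2. SE is the log2 fold change over the square root of F, and the 95% interval uses that SE and the fit's degrees of freedom. The 1.2-fold band was chosen after the values were seen. Alternatives were RLE and total-count scaling, no filter, a minimum of 1 CPM in 3 lines, DESeq2 1.42.0, a robust prior, Xist class (above 50 CPM or not) as covariate, and lines left out. Promoters are from RefSeq; matches overlapping each other were counted separately. All 29 members are described. Values per line are given for the 2 of each role with the highest RPKM and the 5 smallest and 5 largest SDs. Of other lists, genes past the threshold or the 2 with the smallest p are named, with the pocket proteins. Mcm6, Mcm3, Pole and the further E2F genes were given in more detail after their values were seen. The members, lists and tests were chosen with earlier results of these data known.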

Additional observations from a re-analysis of the deposited data

How the results depend on the processing

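The count of 0 of the 29 genes higher in SG lines held in all 14 alternatives run, DESeq2 among them. The count of 0 lower became 1, Rrm2, with no filter on low counts and 1, again Rrm2, with DESeq2, and stayed 0 in the other 12. The median log2 fold change of the 29 lay between -0.086 and -0.022 over the alternatives, that of -0.022 without WT11. Over all genes, 306 passed in edgeR, 959 with no filter on low counts, 934 with DESeq2 and 703 without SG1 and WT9, and from 3 to 579 when a single line was left out: 579 without SG1, 3 without SG2, 222 without SG3, 24 without WT3, 460 without WT9 and 29 without WT11. The cause was not tested. The mean deviation of the 29 in WT11 was 0.095 with RLE and 0.085 with total-count scaling. Total-count scaling turned the order of SG2 (-0.024) and WT9 (-0.013) and ended the overlap of the genotypes in that mean, which was present with TMM and RLE. No paired analysis was possible because each line came from 1 embryo and the labels give no pairing between genotypes. Depth limits E2f2 most, at 201 to 279 reads per line.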
